A study of Homo sapiens with 22 samples.

Results

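HEK293 cells with a dCas9 fusion to active p300 were compared by RNA sequencing with HEK293 cells whose p300 fusion carried the D1399Y substitution. Both sides had the same guide against HBB, the beta-globin gene. The comparison used 4 of the 12 RNA libraries of the series, 2 with dCas9-p300 + sgHBB and 2 with dCas9-p300 D1399Y + sgHBB, and covered all 48162 gene IDs of the count table, of which 16694 passed a filter on low counts. HEK293 is an established line derived from human embryonic kidney, and dCas9 is a Cas9 without nuclease activity that a guide RNA leads to its matching DNA. The labels give 48 hours of dox for every group, WT included. In the fusion groups cells positive for both GFP and BFP were sorted. The other groups used below were VPR (a fusion to the activation domains VP64, p65 and Rta) with sgHBB, VPRP (VPR joined to p300) with sgHBB or with a non-targeting guide, and WT cells, which carried a guide without a fusion and were sorted for BFP alone. The labels do not say which guide the WT cells had, nor whether a group was a clone or a pool.

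p300, encoded by EP300, is a transcriptional coactivator and lysine acetyltransferase that acetylates histones at enhancers and promoters, among them H3K27, and many transcription factors. Its catalytic domain transfers the acetyl group from acetyl-CoA, and bromodomain proteins bind the acetylated lysines. D1399Y lies in the catalytic domain and impairs the transfer, and the fusion protein still has the dCas9 part that binds the guided site. The comparison therefore addresses which genes depended on the acetyltransferase activity, as far as both fusions were present in like amounts.

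Total counts of the 4 libraries ran from 14894558 to 17479523, and 13780 to 14118 genes reached 1 CPM (counts scaled to library size, after TMM factors) in each. The 2 libraries of a group differed by more than sampling noise, with a variance of 2.86 times the Poisson value for p300 and 3 times for D1399Y. All 8 HEK293 markers that matched an ID, of 10 listed, were at 1 CPM or more in both groups, and their summed level was 350 and 357 CPM with p300 and 533 and 542 CPM with D1399Y. Of these markers 6 were lower with p300, beside 15% of all genes, among them NEFM (neurofilament, log2 -1.08), KRT8 (keratin, log2 -0.82) and VIM (vimentin, log2 -0.65). In WT, NEFM was at 123.6 CPM, VIM at 175 CPM and KRT8 at 27.4 CPM. Both groups were thus above WT in KRT8 and below WT in NEFM and VIM. Of 16 markers of other cell types, 6 were under 1 CPM in both groups and INS was at 0 in all 4 libraries. Their summed level was 63.4 and 65.2 CPM with p300 and 92.2 and 83.7 CPM with D1399Y. Of the 11 tested 1 was higher and 4 lower, beside 15.4% and 15% of all genes. In each fit without p300 replicate 1, p300 replicate 2 or D1399Y replicate 1, 2 of them were lower. The part of other cells in the results was not tested.

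EP300 reads differed strongly between the sides. EP300 (ENSG00000100393) was at 1116 and 1132 CPM in the p300 libraries and at 195 and 194 CPM in the D1399Y libraries, against 107 ± 5.4 CPM in WT (SD, n = 2). Both D1399Y libraries were above WT and far below p300. The ratio of p300 to D1399Y was 5.78 (log2 2.53, SE 0.0855, adjusted p = 2.95e-22, quasi-likelihood test of edgeR, adjusted over all genes tested by Benjamini-Hochberg, as throughout). The excess over WT with D1399Y was 8.65% of the excess with p300. Reads of the cells' own gene and of the construct are not separated by these counts, and protein was not measured here, so a difference in catalytic activity and a difference in the amount of fusion cannot be told apart in any result that follows. CREBBP, the closest relative of EP300, was at 110 and 121 CPM with p300 and 156 and 146 CPM with D1399Y (log2 -0.39, SE 0.0737, adjusted p = 0.000116), and its reads were lower in both p300 libraries.

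**Figure D1:**
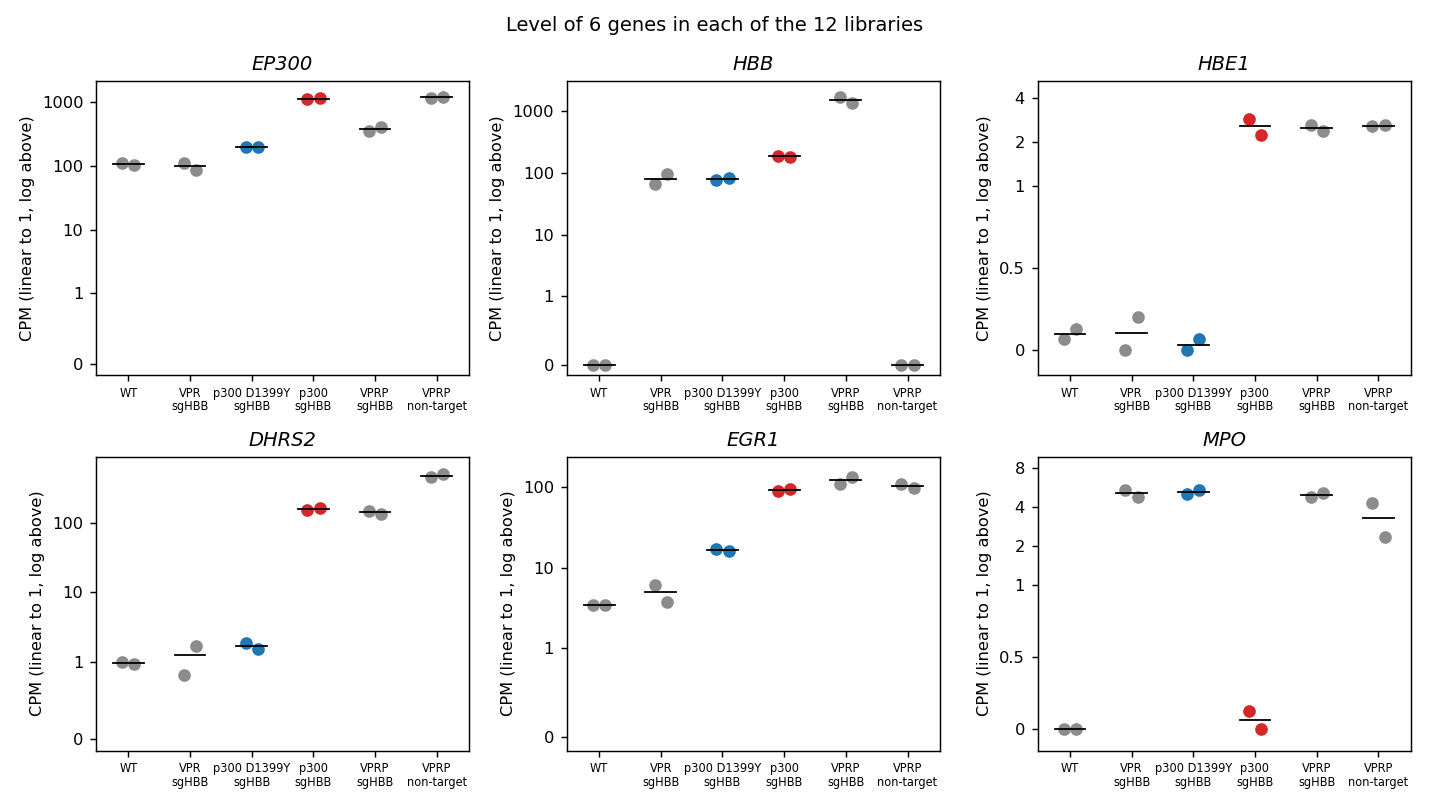
Level in CPM of EP300, HBB, HBE1, DHRS2, EGR1 and MPO in each of the 12 libraries (points) with the mean of each group (line), on an axis that is linear up to 1 CPM and logarithmic above; p300 is in red, D1399Y in blue and the other groups in grey. EP300 was at 1116 and 1132 CPM with p300 and at 195 and 194 CPM with D1399Y, and MPO is the 1 gene of the 6 that was lower with p300.

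With active p300, 5076 of the 16694 genes tested differed from D1399Y (30.4%), 2575 of them higher (15.4%) and 2501 lower (15%). Changes of at least 2-fold were mostly increases, with 735 genes higher (4.4%) and 178 lower (1.07%). Past 8-fold there were 164 higher and 10 lower. The median log2 fold change over all genes tested was 0.00762. The values of the 2 groups did not overlap in 10932 genes (65.5%). Without p300 replicate 1 the count of changed genes was 3226, and without D1399Y replicate 1 it was 3193; such fits leave a group with 1 library, assumed to vary like the other groups. With upper-quartile scaling 3005 genes were higher and 2043 lower. D1399Y was itself not at the WT level. Against WT, 5045 genes differed with D1399Y (30.2%, 2626 higher and 2419 lower). With p300, 7694 differed from WT (46.1%, 4084 higher and 3610 lower). A gene called between p300 and D1399Y can thus have departed from WT on either side. The comparisons with WT share libraries with the main one.

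**Figure D2:**
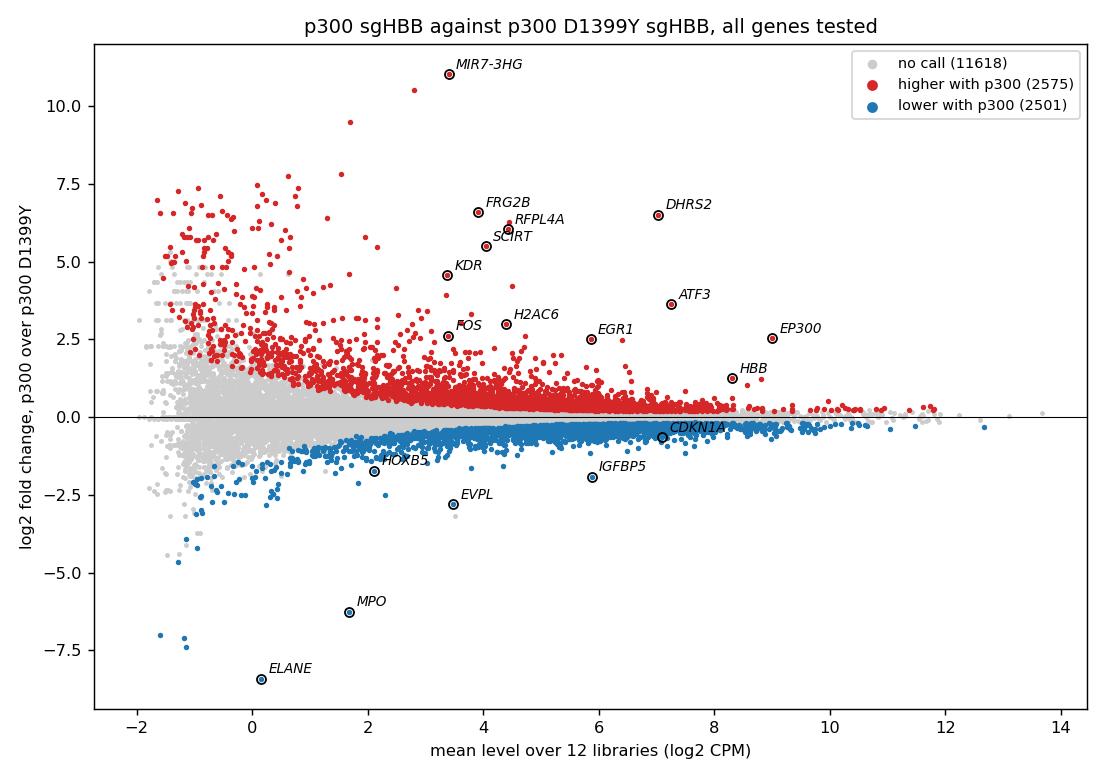
Fitted log2 fold change of p300 over D1399Y against the mean level over the 12 libraries in log2 CPM, for the 16694 genes tested; red points were higher (2575), blue points lower (2501) and grey points had no call. Named genes are circled; fitted values of genes with 3 or fewer counts on a side, such as MIR7-3HG and ELANE, are not bounds, and the points past 8-fold lie mostly above 0.

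The size and direction of the calls differed with the level a gene had in WT cells, whose libraries took no part in the comparison. A gene at a low level in WT passed the filter mostly through a fusion group where it was high, p300 included, so the counts in the lowest class describe only the genes that passed. Of 3053 genes under 1 CPM in WT, 429 were higher (14.1%) and 67 lower (2.19%) with p300, and their median log2 fold change was 0.345. Of 3937 genes at 1 to 10 CPM, 683 were higher and 289 lower. Between 10 and 100 CPM the counts were near each other, with 1255 higher and 1398 lower of 7432. Of 2272 genes at 100 CPM or more, 208 were higher (9.15%) and 747 lower (32.9%), with a median of -0.0902. Of the 735 genes at least 2-fold higher, 422 were under 1 CPM in WT, and 5 were at 100 CPM or more. The median SE was 0.685 in the lowest class and 0.0736 in the highest, so a change had to be larger to be called in the lowest class. Without D1399Y replicate 1, 253 genes of the lowest class were higher, and without p300 replicate 1 or D1399Y replicate 1, 462 genes of the highest class were lower.

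**Figure D3:**
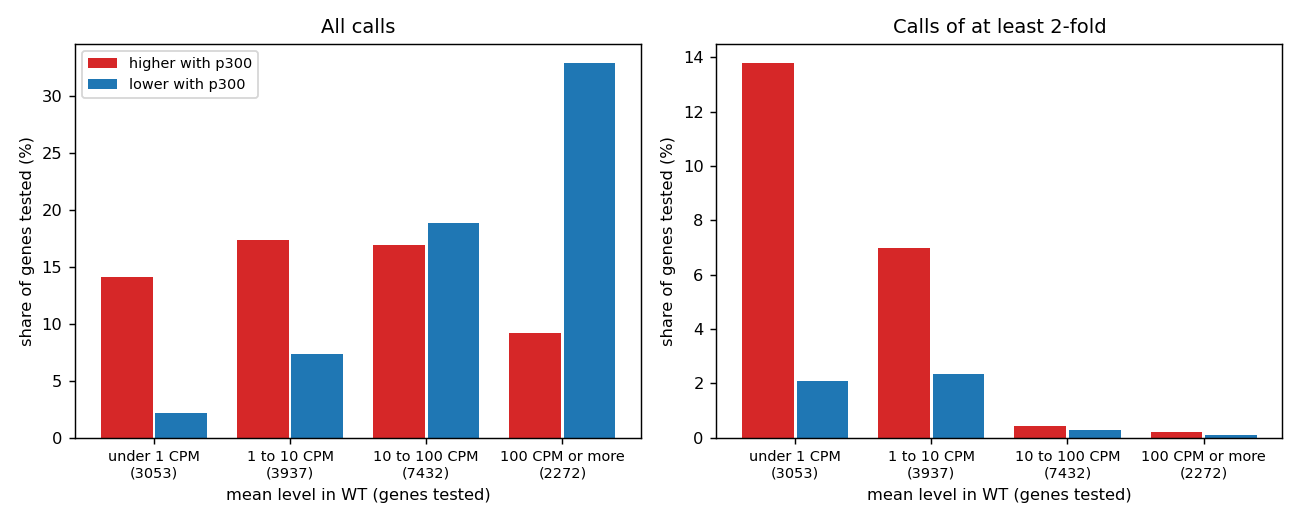
Share of genes tested that were higher (red) or lower (blue) with p300 than with D1399Y, in 4 classes of the mean level in WT, for all calls (left) and for calls of at least 2-fold (right), as bars from 0. Increases of at least 2-fold took 13.8% of the genes under 1 CPM in WT and 0.22% of those at 100 CPM or more.

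HBB, the targeted gene (ENSG00000244734), was at 189 and 185 CPM with p300 and at 76.1 and 82.1 CPM with D1399Y, and no read was counted in WT or in VPRP cells given the non-targeting guide. All 4 libraries of the comparison thus had HBB reads, and both p300 libraries were above both D1399Y libraries. The difference was 2.37-fold (log2 1.244, SE 0.107, 95% interval 1.03 to 1.46, adjusted p = 1.14e-10). HBE1, the embryonic globin of the same cluster, behaved differently: it was at 2.88 and 2.24 CPM with p300 and at 0 and 0.0692 CPM with D1399Y. The count ratio was 81 (95% interval 14.2 to 3237, exact binomial, counting error only; adjusted p = 3.65e-07). HBE1 was also at 2.58 ± 0.0376 CPM (SD, n = 2) with VPRP and the non-targeting guide, so its reads did not need the HBB guide there. Of the 11 globin genes 6 passed the filter. HBQ1 (theta-globin, log2 0.17, 95% interval -0.12 to 0.45, adjusted p = 0.395), HBG2 (adjusted p = 0.967), HBA1 (adjusted p = 0.874) and HBA2 (adjusted p = 0.631) had no call, and HBG2, HBA1 and HBA2 had at most 10 counts in a group, so that a difference was not detectable at this depth. HBD, HBG1, HBM, HBZ and the pseudogene HBBP1 did not pass the filter and had 0 to 2 counts a group.

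The smallest p was that of DHRS2, a short-chain dehydrogenase known to rise in cells given inhibitors of lysine deacetylases. DHRS2 was at 150 and 161 CPM with p300, at 1.85 and 1.52 CPM with D1399Y and at 0.989 ± 0.0268 CPM in WT (SD, n = 2). Both p300 libraries were far above the D1399Y libraries, which lay near the WT level. The difference was 91.2-fold (log2 6.51, SE 0.135, adjusted p = 1.17e-28). The 250 bases before its start are shown because DHRS2 had the smallest p of all genes tested; they come from RefSeq (GRCh38.p14, chr14:23629865-23630114, plus strand), and the capitals mark the TATAAA match 29 bases before the start.
DHRS2: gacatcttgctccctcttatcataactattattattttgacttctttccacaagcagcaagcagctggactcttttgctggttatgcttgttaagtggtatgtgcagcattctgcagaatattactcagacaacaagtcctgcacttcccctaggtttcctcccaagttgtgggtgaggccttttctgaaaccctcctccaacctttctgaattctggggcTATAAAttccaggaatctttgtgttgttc

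SCIRT, a long noncoding RNA, was at 41.7 and 38.5 CPM with p300 and at 0.983 and 0.761 CPM with D1399Y (45.1-fold, log2 5.50, SE 0.205, adjusted p = 5.68e-21). MIR7-3HG, the host transcript of a microRNA of the miR-7 family, was at 16.3 and 15.7 CPM with p300 and had no read with D1399Y, at least 170-fold higher (adjusted p = 1.25e-16). Both had low WT levels as well, 0.686 ± 0.494 and 0.0323 ± 0.0457 CPM (SD, n = 2). KDR, a receptor of vascular endothelial growth factor, was at 7.96 and 10.2 CPM against 0.231 and 0.553 CPM (log2 4.56, SE 0.3, adjusted p = 5.75e-14). CRISPLD2, a secreted protein, was at 11.1 and 13.8 CPM against 0.751 and 0.553 CPM (18.7-fold, adjusted p = 1.92e-16). In all these genes both D1399Y libraries were under 1 CPM and both p300 libraries were above 7 CPM. FSTL5 (log2 4.59), FGF23, a phosphate-regulating hormone (4.26), MAGEB6 (4.19) and RRAD, a small GTPase (3.996), were also among the largest increases. Genes of the DUX4 set and PRR20G, both described next, and GOLGA6FP, which had no read with D1399Y (at least 18.3-fold), completed them. The low counts with D1399Y bear on these values. Leaving out D1399Y replicate 1 and D1399Y replicate 2 in turn gave 4.03 and 5.25 for KDR, 3.58 and 5.29 for FGF23 and 3.32 and 5.03 for RRAD on the log2 scale, each with a call. MAGEB6 had no read in D1399Y replicate 2, so its value without D1399Y replicate 1 has no size; it was 3.34 without D1399Y replicate 2 and 3.62 without p300 replicate 2.

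Genes of the cleavage-stage embryo that DUX4, a transcription factor of early development, is known to switch on include several of the largest increases. Of 32 listed, 30 matched an ID and 11 passed the filter. Of these 6 were higher and none lower, beside 15.4% and 15% of all genes. Their median log2 fold change was 2.58 against 0.00762 over all genes. Over the 10 with more than 3 counts in a group, and with the 1 gene without D1399Y reads at its bound, the median was 2.14. Members near 0 passed the filter through the groups where they were high, so these figures describe only the members that passed. RFPL4A was at 7.65 and 5.71 CPM with p300 and at 0.116 and 0.0692 CPM with D1399Y, a count ratio of 70.5 (95% interval 23.8 to 345, adjusted p = 5.54e-14). FRG2B was at 4.41 and 3.12 CPM against 0.0578 and 0 CPM, a count ratio of 119 (95% interval 21 to 4743, adjusted p = 7.47e-11). The count ratio was 95.3 for FRG2C (95% interval 16.7 to 3802) and 19.1 for FRG2 (95% interval 6.22 to 95). FRG2, FRG2B and FRG2C are near-identical copies, and PRR20G (count ratio 55.3, 95% interval 9.54 to 2221) and GOLGA6FP belong to such families too, so how their reads divide among the copies is not certain. SLC34A2, a phosphate transporter, was at 1.22 and 1.12 CPM against 0.116 and 0.277 CPM (log2 2.58, SE 0.613, adjusted p = 0.00159). The promoter of RFPL4A is shown as the most abundant of the set (RefSeq, GRCh38.p14, chr19:55758847-55759096, plus strand); capitals mark CCAAT on either strand, 230, 112 and 67 bases before the start, and TATAAA at 11 bases.
RFPL4A: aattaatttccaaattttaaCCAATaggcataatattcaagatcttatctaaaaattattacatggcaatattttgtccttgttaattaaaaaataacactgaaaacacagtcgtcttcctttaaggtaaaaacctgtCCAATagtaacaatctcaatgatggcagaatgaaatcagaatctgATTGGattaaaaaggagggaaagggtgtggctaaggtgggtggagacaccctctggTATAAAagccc

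Genes read on 1 side only were mostly genes of active p300. At 3 or fewer counts over both D1399Y libraries and 1 CPM or more with p300 there were 35 genes, 24 of them with a symbol, 12 at 0 counts with D1399Y and 27 also at 3 or fewer counts in WT. Beside genes named above they held LINC02506 (3.3 and 2.94 CPM with p300, count ratio 33, 95% interval 11 to 163) and SNAP25, a protein of synaptic vesicle fusion (1.9 and 2.12 CPM, count ratio 21.3, 95% interval 6.98 to 106). The opposite pattern was seen in 4 genes, MPO, ELANE, CLC and S100A8. All 4 are products of granulocytes or their precursors, and all 4 had 3 or fewer counts in WT.

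MPO, the myeloperoxidase of neutrophils, was at 0.122 and 0 CPM with p300 and at 4.97 and 5.39 CPM with D1399Y, a count ratio of 0.0116 (95% interval 0.0014 to 0.0427, adjusted p = 2.54e-10). ELANE, neutrophil elastase, had 83 counts with D1399Y and none with p300, at least 29-fold lower with p300 (adjusted p = 2.89e-07). CLC was at least 14.5-fold and S100A8 at least 11.7-fold lower. In a list of 22 granulocyte genes chosen after these values were seen, the summed counts were 25 and 25 in the p300 libraries, 320 and 295 with D1399Y and 22 and 25 in WT. They were 193 and 187 with VPR, 204 and 257 with VPRP and sgHBB, and 246 and 178 in VPRP cells given the non-targeting guide. The sums were of like size in p300 and WT, and MPO and ELANE made up most of them with VPR. Single genes did not all follow the sums: CLC had 19 and 22 counts with D1399Y, 0 and 1 with VPR and 1 and 1 with VPRP and sgHBB, and S100A8 had 22 and 12, 1 and 3, and 1 and 1. These genes passed the filter through the groups where they were high, so no count of calls is read from them. PTPRC, which marks all white blood cells, had 5 and 3 counts in the D1399Y libraries and 0 in the p300 libraries. The fusion groups were sorted for GFP and BFP. Whether white blood cells had a part in these reads was not tested, and in bulk RNA more cells of a type and more RNA per cell cannot be told apart.

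The other large decreases with active p300 were smaller than the increases. EVPL, envoplakin of the cornified envelope, was at 4.16 and 3.42 CPM with p300 and at 27.3 and 25.8 CPM with D1399Y (log2 -2.81, SE 0.175, adjusted p = 1.49e-14). PPL, its partner periplakin, was at 1.47 and 1.41 CPM against 4.8 and 5.19 CPM (log2 -1.79, SE 0.321, adjusted p = 6e-05). IGFBP5, a secreted binding protein of insulin-like growth factors, was at 28.1 and 28.8 CPM against 111 and 104 CPM (log2 -1.92, SE 0.0839, adjusted p = 8.53e-19). These 3 genes were lower in both p300 libraries, yet only IGFBP5 was also below its WT level of 60.3 ± 0.139 CPM (SD, n = 2). EVPL was at 0.198 ± 0.00536 CPM and PPL at 1.06 ± 0.215 CPM in WT. INPP5D, an inositol phosphatase of blood cells, was at 14.5 and 12.8 CPM against 44.5 and 40 CPM, and at 3.3 ± 0.00393 CPM in WT. TMEM37, a channel subunit-like protein, was at 11.1 and 10.2 CPM against 33.5 and 30.8 CPM, and at 2.44 ± 0.0661 CPM in WT. In both genes the order was D1399Y, then p300, then WT. The other decreases that led the list were in DMBT1 (log2 -2.52), AEBP1 (-2.10), HOXB5 (-1.73), CEL (-1.65), BCL11B (-1.55), HOXB2 (-1.48), WNT6 (-1.45), HOXC-AS2 (-1.43) and SPARC (-1.43). Without p300 replicate 2 the AEBP1 value was -2.80.

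Genes known to respond to inhibitors of lysine deacetylases were more often higher than lower, and acetylation was not measured here. Of 16 tested members of 21 listed, 9 were higher and 2 lower, beside 15.4% and 15% of all genes. Their median log2 fold change was 0.67. Beside DHRS2, GADD45B, a stress-response gene, was at 30.3 and 27.2 CPM against 5.49 and 3.73 CPM (log2 2.62, SE 0.144, adjusted p = 5.45e-16). CDKN1A, an inhibitor of the cell cycle that such compounds commonly raise, went the other way and is given with the p53 targets.

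Replication-dependent histone genes, whose products package new DNA, held 11 higher and no lower members among 23 tested of 61 listed (26 matched an ID). Their median log2 fold change was 0.988, and over all genes 15.4% were higher and 15% lower. H2AC6 was at 47.7 and 45.6 CPM with p300 and at 6.36 and 5.33 CPM with D1399Y (log2 2.99, SE 0.136, adjusted p = 2.36e-18). H2BC5 was at 26.8 and 29 CPM against 6.13 and 6.78 CPM (log2 2.12, SE 0.134, adjusted p = 2.28e-14). H1-2 (log2 1.00), H4C8 (3.13) and H2BC11 (0.99) were higher as well. In each of these 5 genes both p300 libraries were above both D1399Y libraries, and the WT mean lay between 0.396 CPM (H4C8) and 12.8 CPM (H1-2). Libraries made from RNA with poly-A tails take up most transcripts of this family poorly, and several members have near-identical copies. Without p300 replicate 2, 6 members were higher, and without D1399Y replicate 1, 5.

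The promoters of H2AC6 and H2BC5, the members with the smallest p, are shown because histone genes share promoter elements (RefSeq, GRCh38.p14, plus strand, chr6:26123922-26124171 and chr6:26157871-26158120). Capitals mark CCAAT and TATAAA on either strand. H2AC6 held CCAAT 172, 98 and 68 bases and TATAAA 31 bases before the start. H2BC5 held CCAAT 167, 139, 105 and 73 bases and TATAAA 205 and 28 bases before it. Of 21 histone promoters of tested genes in the table, 18 held CCAAT, 10 of the 11 higher genes and 8 of the 10 without a call. The motif was thus about as frequent in members that did not pass the test.
H2AC6: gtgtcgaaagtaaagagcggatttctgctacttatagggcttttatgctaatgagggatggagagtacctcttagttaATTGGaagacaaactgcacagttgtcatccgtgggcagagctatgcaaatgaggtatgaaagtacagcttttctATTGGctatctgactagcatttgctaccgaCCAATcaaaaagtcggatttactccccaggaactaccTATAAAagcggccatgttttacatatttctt
H2BC5: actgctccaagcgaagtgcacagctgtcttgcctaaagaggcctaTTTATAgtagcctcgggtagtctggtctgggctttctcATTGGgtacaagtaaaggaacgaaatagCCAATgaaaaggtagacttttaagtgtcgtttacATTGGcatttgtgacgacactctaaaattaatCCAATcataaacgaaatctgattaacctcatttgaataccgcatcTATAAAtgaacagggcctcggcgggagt

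Immediate early genes, transcribed within minutes of a stimulus, held 16 higher and 3 lower members of 35 tested (36 listed), beside 15.4% and 15% of all genes. Their median log2 fold change was 0.425. ATF3, a transcription factor of the stress response, was at 532 and 527 CPM with p300 and at 41.4 and 44.2 CPM with D1399Y (12.4-fold, log2 3.63, SE 0.0825, adjusted p = 1.13e-27). EGR1, a zinc finger factor, was at 91.1 and 95.3 CPM against 16.9 and 15.9 CPM (log2 2.51, SE 0.112, adjusted p = 1.29e-18). FOS was at 19.3 and 17.3 CPM against 3.18 and 2.77 CPM (log2 2.61, SE 0.178, adjusted p = 1.76e-13), and JUN, its partner in AP-1, at 594 and 632 CPM against 263 and 257 CPM (log2 1.237, SE 0.0708, adjusted p = 1.38e-15). These genes differed in how they stood to WT. EGR1 and FOS were lower in WT, at 3.43 ± 0.000355 and 1.32 ± 0.129 CPM, than in any of the 4 libraries. JUN was at 639 ± 3.88 CPM in WT, and ATF3 at 105 ± 8.25 CPM, between the groups (SD, n = 2). Against WT, JUN had no call with p300 (log2 -0.06, adjusted p = 0.509) and was lower with D1399Y (log2 -1.30, adjusted p = 2.47e-16); these comparisons share libraries with the main one. DUSP1, a phosphatase that ends MAP kinase signals, was higher by log2 1.46. Without p300 replicate 1 or D1399Y replicate 1, 1 member was lower in place of 3.

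The promoter of EGR1 is shown as that of a textbook immediate early gene (RefSeq, GRCh38.p14, chr5:138465229-138465478, plus strand). Capitals mark matches to the CArG box, the element that serum response factor binds, 105 and 83 bases before the start.
EGR1: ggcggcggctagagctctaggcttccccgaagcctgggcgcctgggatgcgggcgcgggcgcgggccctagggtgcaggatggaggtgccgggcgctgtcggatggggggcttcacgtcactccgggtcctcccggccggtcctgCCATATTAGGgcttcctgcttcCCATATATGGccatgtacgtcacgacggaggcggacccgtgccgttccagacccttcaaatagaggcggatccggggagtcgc

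Targets of CREB, a factor activated by cyclic AMP that binds CREBBP and p300, overlapped with that list. They held 7 higher and 1 lower member of 16 tested (22 listed), beside 15.4% and 15% of all genes, with a median log2 fold change of 0.441. CGA, the common subunit of glycoprotein hormones, was at 7.59 and 5.24 CPM against 0.462 and 0.622 CPM (log2 3.56, SE 0.422, adjusted p = 6.01e-08). RGS2, a regulator of G protein signals, was at 24.3 and 21.4 CPM against 6.3 and 5.95 CPM (log2 1.90, SE 0.148, adjusted p = 5.36e-12), and FOSB was higher by log2 0.97. PDE4D, a phosphodiesterase of cyclic AMP, was lower (log2 -0.73, SE 0.176, adjusted p = 0.00173).

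The integrated stress response and the unfolded protein response, which adjust translation and folding, held 12 higher and 1 lower member of 30. Their median log2 fold change was 0.166, and over all genes 15.4% were higher and 15% lower. DDIT3, the factor CHOP, was at 10.5 and 10.8 CPM with p300 and at 1.16 and 1.04 CPM with D1399Y (log2 3.26, SE 0.249, adjusted p = 2.81e-12). ATF4, the central factor of the response, was at 1284 and 1255 CPM against 839 and 925 CPM (log2 0.53, SE 0.0717, adjusted p = 8.11e-07). ASNS, asparagine synthetase (log2 0.62), CHAC1, which degrades glutathione (1.06), and PPP1R15A, which restores translation (0.81), were higher too. For ATF4, ASNS and CHAC1 the p300 level was near that of WT: against WT the log2 values were -0.01 (adjusted p = 0.952), -0.15 (adjusted p = 0.0658) and -0.04 (adjusted p = 0.768) with p300. With D1399Y they were -0.53 (adjusted p = 4.6e-07), -0.77 (adjusted p = 6.49e-11) and -1.11 (adjusted p = 5.84e-09). WT differs from both groups in the fusion, the sort and possibly the guide. No member was lower in the fit without p300 replicate 1 or in that without D1399Y replicate 1.

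Targets of p53, the tumour suppressor, held 18 lower and 2 higher members of 26 tested, beside 15% and 15.4% of all genes. Their median log2 fold change was -0.405. BAX, which permeabilizes mitochondria, was at 145 and 150 CPM with p300 and at 263 and 259 CPM with D1399Y (log2 -0.82, SE 0.0705, adjusted p = 5.35e-11). TNFRSF10B, a death receptor, was at 92 and 95.3 CPM against 158 and 151 CPM (log2 -0.72, SE 0.0725, adjusted p = 1.94e-09). CDKN1A, encoding p21, was at 122 and 134 CPM against 205 and 196 CPM (log2 -0.65, SE 0.0712, adjusted p = 1.32e-08). All 3 were lower in both p300 libraries. ZMAT3 (log2 -0.89) and SPATA18 (-1.08) were lower as well. Against WT, BAX, TNFRSF10B and ZMAT3 had no call with p300 (adjusted p = 0.665, 0.0636 and 0.631) and were higher with D1399Y (log2 0.78, 0.89 and 0.96), while CDKN1A was higher with both (log2 1.54 and 2.19). HEK293 cells carry adenoviral E1 proteins that bind p53, which limits the line as a model of this pathway. The count of lower members stayed at 16 to 17 without any 1 of the 4 libraries.

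Neuronal genes held 15 higher and 3 lower members of 25 tested (30 listed), beside 15.4% and 15% of all genes. Their median log2 fold change was 1.11. SYN1, synapsin, was at 14.3 and 14.2 CPM with p300 and at 2.08 and 2.01 CPM with D1399Y (log2 2.80, SE 0.231, adjusted p = 2.05e-11). SYP, synaptophysin, was at 57.2 and 58.3 CPM against 29.6 and 32.2 CPM (log2 0.90, SE 0.092, adjusted p = 2.72e-09). VGF, a neuropeptide precursor (log2 1.64), and L1CAM, an adhesion molecule (1.499), were higher. NEFM, which HEK293 cells express at a high level, was at 48.2 and 50.6 CPM against 109 and 99.6 CPM (log2 -1.08, SE 0.0818, adjusted p = 2.67e-12) and was lower in both p300 libraries. The other lower members were SV2A, a synaptic vesicle protein (log2 -0.53), and ELAVL2, an RNA-binding protein (-0.51), both named after their values were seen. Cancer-testis antigens, normally silent outside the germ line, held 8 higher and no lower members of 12 tested (35 listed, 31 matched), beside the same shares. Their median was 1.9 (1.89 over 11 members with the 3 at 0 counts with D1399Y at their bound). As with the DUX4 genes, members near 0 passed the filter through the groups where they were high, so these figures describe only the members that passed. MAGEB2 was at 8.63 and 8.07 CPM against 1.91 and 2.63 CPM (log2 1.89, SE 0.184, adjusted p = 9.42e-10). MAGEA6 was at 3.67 and 5.95 CPM against 1.68 and 1.8 CPM (log2 1.47, SE 0.231, adjusted p = 8.05e-06), and MAGEC2 was higher by log2 3.03. MAGEC1 had 14 counts with p300 and none with D1399Y, at least 4.49-fold higher. MAGEB2 and MAGEA6 were far higher in WT, at 26.8 ± 0.672 and 24.4 ± 0.054 CPM (SD, n = 2), than in any of the 4 libraries, and the MAGE genes have near-identical relatives. MAGEA10, at 9.46 CPM in WT, had 0 counts with p300 and 2 with D1399Y, so both compared groups differed from WT in the same way. In the fit without p300 replicate 1, 5 antigen genes were higher and MAGEC1 had no call.

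**Figure D4:**
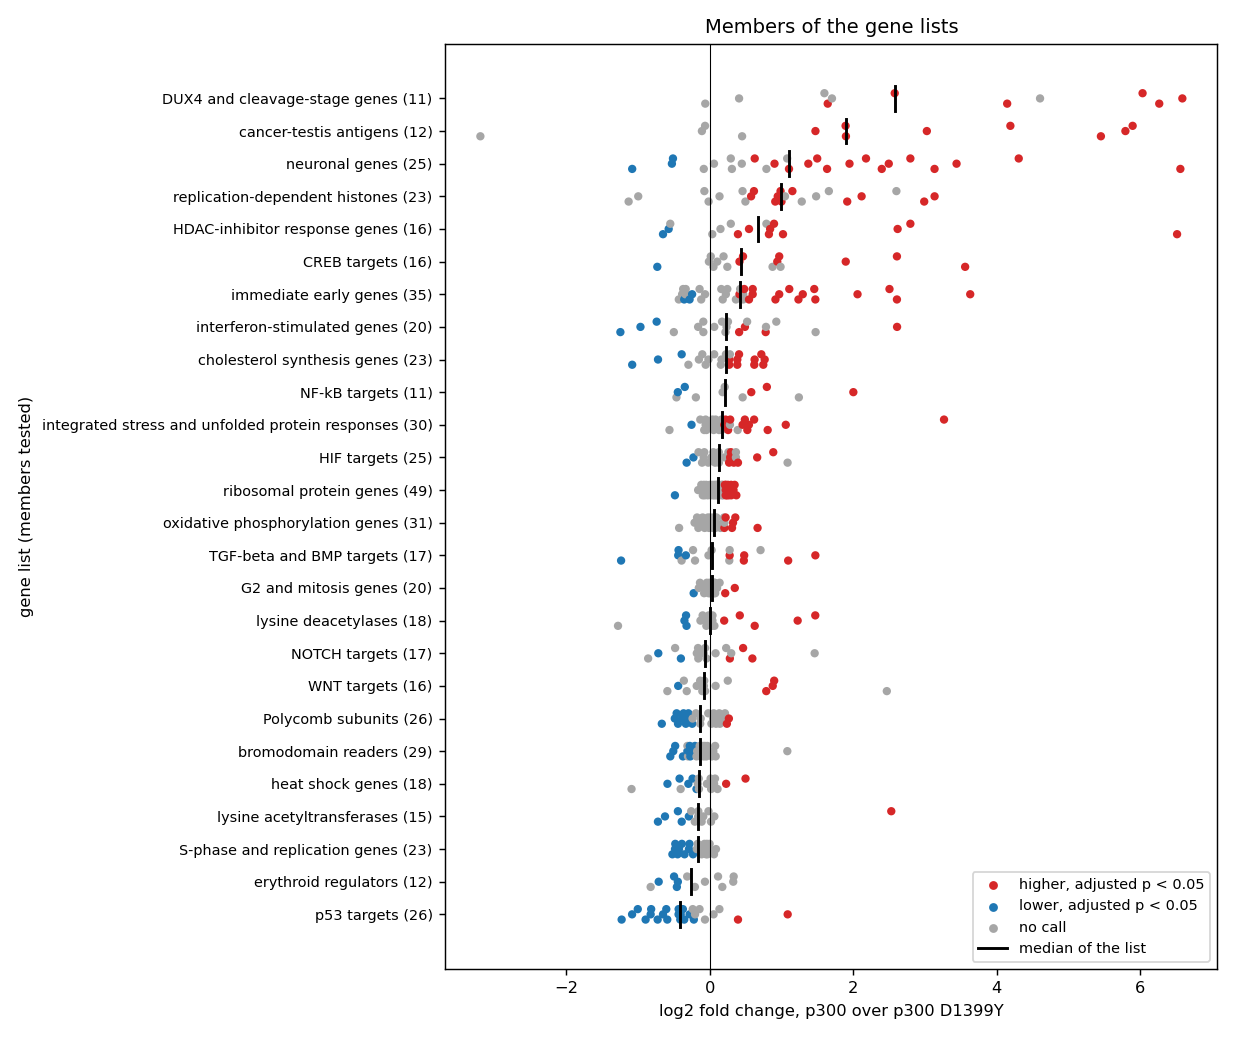
Log2 fold change of p300 over D1399Y for each tested member of 26 gene lists (points), with the median of each list (black bar) and the number of members tested in brackets; red and blue points passed adjusted p under 0.05. Globin genes, metallothioneins and cell type markers are not drawn; the medians run from -0.405 (p53 targets) to 2.58 (DUX4 and cleavage-stage genes), and the fitted values of members with 3 or fewer counts on a side are not bounds.

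Among the writers, erasers and readers of acetylation, counts are to be read beside the 15.4% higher and 15% lower over all genes. Of 15 lysine acetyltransferases, EP300 alone was higher and 5 were lower. KAT2A was at 37 and 40 CPM with p300 and at 63.6 and 63.4 CPM with D1399Y (log2 -0.72, SE 0.0834, adjusted p = 3.87e-08). KAT2B (PCAF, log2 -0.62) and NCOA2 (-0.44) were lower beside CREBBP. Of 18 lysine deacetylases 5 were higher and 3 lower: SIRT4, a mitochondrial sirtuin, was at 4.83 and 4.95 CPM against 1.97 and 1.52 CPM (log2 1.47, SE 0.271, adjusted p = 7.87e-05), HDAC9, a class II deacetylase named after its value was seen, was higher by log2 1.23, HDAC11 by 0.63 and SIRT2 by 0.42. HDAC5 (log2 -0.33) and SIRT1 (-0.35) were lower. Of 29 tested bromodomain readers (32 listed) 10 were lower and none higher, with a median of -0.139, among them SMARCA4, the ATPase of SWI/SNF (log2 -0.37), BRWD3 (-0.55) and ZMYND8 (-0.51). Of 26 Polycomb subunits 10 were lower and 2 higher, with a median of -0.128, led by BMI1 (log2 -0.67), CBX2 (-0.46) and PHF19 (-0.48). These counts moved with single libraries. Without D1399Y replicate 1, 3 deacetylases were higher and 1 lower, 4 readers were lower, and 5 Polycomb subunits were lower and 1 higher. Leaving out p300 replicate 1, 5 readers were lower, and 6 Polycomb subunits were lower and 1 higher. Leaving out p300 replicate 2, 5 readers were lower and no Polycomb subunit was higher, and without D1399Y replicate 2 none was higher either. With upper-quartile scaling 6 readers were lower, and 4 Polycomb subunits were higher.

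Cholesterol synthesis genes, under control of SREBP factors, held 10 higher and 3 lower members of 23 tested (24 listed), beside 15.4% and 15% of all genes. Their median was 0.227. HMGCS1, an early enzyme of the pathway, was at 85.1 and 85 CPM against 50.1 and 53.3 CPM (log2 0.72, SE 0.0774, adjusted p = 8.22e-09). IDI1 (log2 0.75), HSD17B7 (0.77) and INSIG1, the feedback regulator (0.63), were higher. Of 23 S-phase and replication genes 10 were lower and none higher, beside 15% and 15.4% of all genes, with a median of -0.166. Among the lower genes were the helicase subunits MCM2 (log2 -0.45), MCM3 (-0.39) and MCM5 (-0.43), FEN1 (-0.48) and TYMS (-0.52). Of 20 G2 and mitosis genes 2 were higher and 1 lower, beside 30.4% changed over all genes; none was lower without any 1 of the 4 libraries, and 1 was higher without p300 replicate 1 or either D1399Y replicate. In the fit without p300 replicate 1, 6 replication genes were lower, and without D1399Y replicate 2, 1 cholesterol gene was lower.

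Ribosomal protein genes (49 tested, 14 higher, 1 lower, median 0.113) and oxidative phosphorylation genes (31 tested, 6 higher, 0 lower, median 0.0611) are to be read beside 30.4% changed over all genes, and their changes were small, as in RPS7 (log2 0.37) and NDUFA4 (0.36). Their counts rested on single libraries: without p300 replicate 1 or D1399Y replicate 1, 2 ribosomal and 2 oxidative phosphorylation genes were higher, and without p300 replicate 2, 7 ribosomal genes. The lower members numbered 0 to 2 in these fits. Targets of HIF (25 tested, 7 higher, 2 lower) held DDIT4, an inhibitor of mTOR signals (log2 0.89), and PGK1 (0.27). With p300 replicate 1 left out 2 were higher, with D1399Y replicate 1 left out 4, and none was lower in either fit or without p300 replicate 2; without D1399Y replicate 2, 1 was lower. Targets of TGF-beta and BMP (17 tested, 5 higher, 4 lower) held ID1, an inhibitor of differentiation (log2 1.09), and CCN2, a matrix protein (1.47). Without D1399Y replicate 1 none was lower, and without p300 replicate 1 or 2, 2 were. Targets of WNT (16 tested, 3 higher, 1 lower), NOTCH (17 tested, 3 higher, 2 lower) and NF-kB (11 tested, 3 higher, 2 lower), interferon-stimulated genes (20 tested, 4 higher, 3 lower), heat shock genes (18 tested, 2 higher, 5 lower) and metallothioneins (2 tested, 1 higher) are to be read beside the 30.4% changed over all genes. Without any 1 of the 4 libraries 1 NOTCH target and 1 NF-kB target were lower, and without p300 replicate 1, p300 replicate 2 or D1399Y replicate 2, 1 NF-kB target was higher. Interferon-stimulated genes held 1 lower member without p300 replicate 1 or D1399Y replicate 2. Heat shock genes held 2 lower members without p300 replicate 1 or D1399Y replicate 2, with 1 higher in each, 1 lower without p300 replicate 2 and 3 without D1399Y replicate 1, and no metallothionein was higher in that last fit. Erythroid regulators (12 tested of 20 listed, 4 lower, 0 higher) held BCL11A, the repressor of fetal globin (log2 -0.46), and RUNX1 (-0.71). When p300 replicate 1 was left out, 1 erythroid regulator was lower, and without D1399Y replicate 2, 2.

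Promoter sequences of the called genes were set beside those of all genes tested, over the 250 bases before the start in RefSeq (GRCh38.p14), with 12004 tested genes matched by symbol. Of the 27305 symbols with a promoter, 5191 had more than 1, and the first listed was taken. That start need not be the one used in HEK293 cells. CCAAT, searched on both strands like all motifs here, was in 41.4% of 1953 promoters of genes higher with p300, in 30.9% of 1914 of genes lower, in 35% of those tested and in 33% of all 27305. The CRE palindrome TGACGTCA was in 3.89% of promoters of higher genes, 2.77% of lower genes and 2.85% of those tested. The E-box CACGTG was less frequent among higher genes (7.32%) than among lower genes (10.9%), with 8.71% of those tested. The GC box GGGCGG was in 69.8% and 70.1% of higher and lower genes against 67.1%, and the AP-1 site TGANTCA in 3.43% and 3.81% against 3.68%. TATAAA was in 6.81% and 5.43% against 5.45%, and the CArG box in 1.33% and 1.15% against 0.991%. Of all 27305 promoters 1.77% held TGACGTCA, 6.49% CACGTG, 42.3% GGGCGG, 6.6% TGANTCA, 11.1% TATAAA and 1.14% the CArG box. The median GC content was 65.2% in higher genes and in genes tested and 66.4% in lower genes. A match is a run of letters and not a bound site, and the shares have no test.

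The same genes were followed in 2 comparisons that share no library with the one above. Both use the same 2 VPR libraries, so they are not independent of each other. VPRP with the non-targeting guide against VPR with sgHBB adds the p300 part and also changes the guide; 9225 genes differed there (55.3%), 4515 higher (27%) and 4710 lower (28.2%). Of the genes higher with p300 than with D1399Y, 1648 were higher there too, which is 64% of the former and 36.5% of the latter. Of those lower, 1600 were lower there too, 64% and 34%. The opposite direction was called in 229 of the higher and 162 of the lower genes. Among calls of at least 2-fold in both, 566 of the 735 higher genes (77%) were shared and 42 of the 178 lower genes (23.6%); over all genes tested 13.4% were higher and 3.35% lower there by that much. Over all 16694 genes the Pearson correlation of the log2 fold changes was 0.596, a description over genes that share length, base composition and a common fit. EP300 reads were at 1172 ± 9.92 CPM with VPRP and the non-targeting guide (SD, n = 2), 104% of the p300 level.

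VPRP with sgHBB against VPR with sgHBB keeps the guide; 8307 genes differed (49.8%), 4118 higher (24.7%) and 4189 lower (25.1%). Shared were 1540 higher genes (59.8% of the main ones, 37.4% of those there) and 1444 lower genes (57.7% and 34.5%), and the correlation was 0.526. Here MAGEA10, which WT and VPR libraries express (as do those of VPRP and the non-targeting guide), fell by 6.90 on the log2 scale; whether the groups differ otherwise than in the p300 part was not tested. At least 2-fold in both were 498 of the 735 higher genes (67.8%) and 31 of the 178 lower genes (17.4%), beside 10.7% higher and 3.17% lower over all genes tested. EP300 was at 375 ± 33.3 CPM with VPRP and sgHBB (SD, n = 2), 33.3% of the p300 level. DHRS2 was higher in both comparisons (log2 8.57 with the non-targeting and 6.81 with the HBB guide), as were SCIRT (5.17 and 4.32), KDR (4.73 and 4.83), EGR1 (4.39 and 4.61), GADD45B (4.07 and 2.89) and H2BC5 (3.83 and 2.64). SNAP25 had no call in either (adjusted p = 0.2 and 0.502). ASNS and CHAC1, higher with p300 than with D1399Y, were lower in both (log2 -1.01 and -0.85, and -0.91 and -0.77). Of the 30 stress response genes in their list, 7 were higher and 14 lower with the non-targeting guide (median -0.206). With the HBB guide 10 were higher and 14 lower (median -0.204), against 12 and 1 with p300 over D1399Y. Of 49 ribosomal protein genes, 1 was higher and 30 lower, and 4 higher and 12 lower. Of 12 cancer-testis antigens, 10 were higher and 1 lower, and 5 higher and 5 lower.

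The largest decreases were less alike. IGFBP5 (log2 -2.29 and -0.85), BCL11B (-1.01 and -1.68), HOXB5 (-1.18 and -0.97) and HOXB2 (-0.98 and -1.09) were lower in both. EVPL was lower with the non-targeting guide (log2 -3.54, adjusted p = 6.66e-13) and higher with the HBB guide (log2 1.78, adjusted p = 2.13e-11). TMEM37 (log2 -2.29 and 1.21) and INPP5D (-1.53 and 0.80) had the same 2 signs, each with a call. AEBP1 was higher in both (log2 2.45 and 4.34). MPO had no call in either (adjusted p = 0.0552 and 0.901), nor had PPL (adjusted p = 0.741 and 0.726). Of the 26 p53 targets 8 were higher and 10 lower with the non-targeting guide (median log2 -0.162), and 15 were higher and 4 lower with the HBB guide (median 0.413), against 2 higher and 18 lower with p300 over D1399Y. BAX was lower in both (log2 -0.72 and -0.31), while CDKN1A was higher with the HBB guide (log2 1.14, adjusted p = 3.68e-15) and had no call with the non-targeting guide (adjusted p = 0.0564).

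**Figure D5:**
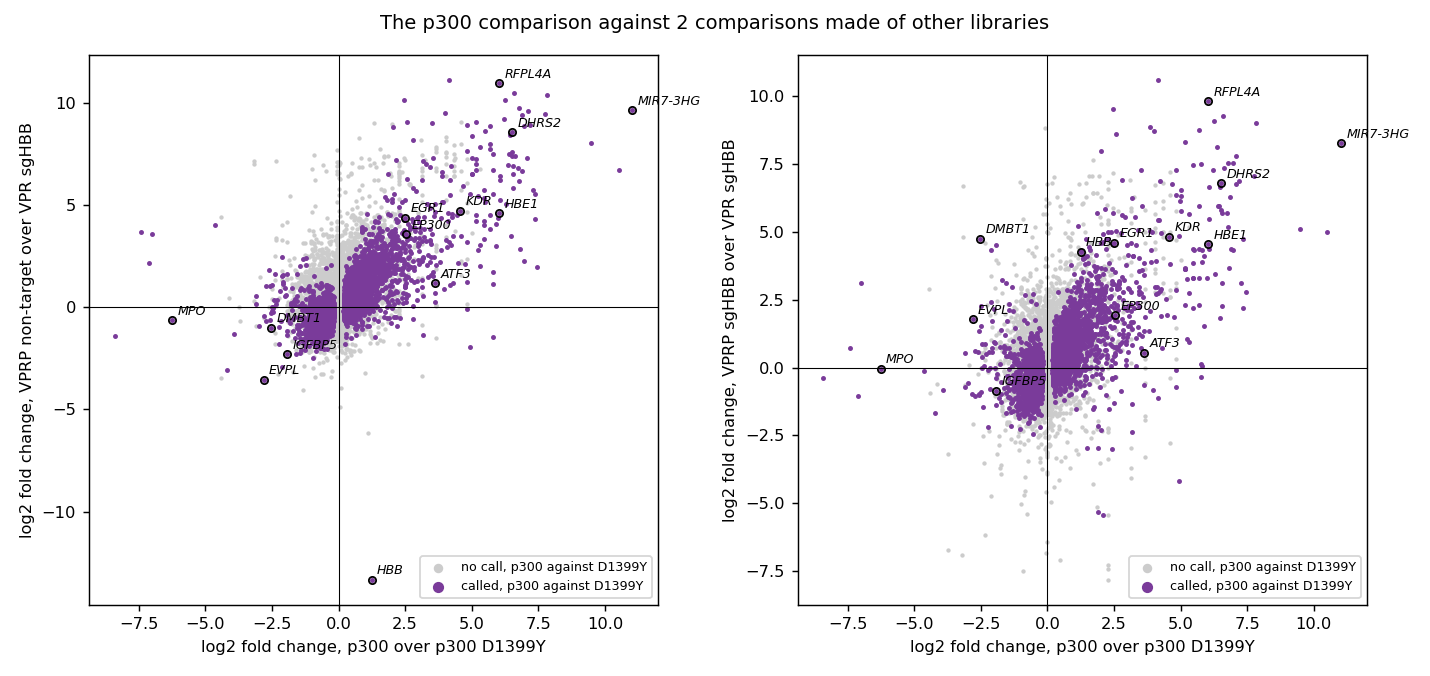
Log2 fold change of VPRP non-target over VPR sgHBB (left) and of VPRP sgHBB over VPR sgHBB (right) against that of p300 over D1399Y, for the 16694 genes tested; purple points were called in the p300 comparison and named genes are circled. DHRS2, RFPL4A and EGR1 lie in the upper right of both panels, and EVPL lies below 0 on the left and above 0 on the right; HBB is far below 0 on the left, where the guide differs.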

How the data were processed

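The deposited table holds raw read counts, as whole numbers, for 48162 gene IDs. STAR 2.5, HTSeq 0.6.1 and the build hg19 are among the names in the submitters' processing notes, without their roles. Neither strand setting nor annotation release is stated there, so reads of overlapping or antisense genes cannot be told apart. Symbols were matched for 33626 IDs. Counts were analysed with edgeR 4.0.16 in R 4.3.3: filterByExpr by group (minimum count 10, total 15), TMM factors, and a quasi-likelihood fit of 6 group means to all 12 libraries, with Benjamini-Hochberg adjustment over 16694 genes at 0.05. Only the edgeR fit was run on simulated counts, with far fewer changed genes than seen here, so scaling under such broad change was not tested. The bounds, count ratios, list medians, promoter shares and shared calls were not simulated. Where a group had 0 counts, the fold was taken against 3 counts in that group as a bound. Such bounds and the intervals of count ratios hold for counting error alone, since reads carried no molecular identifiers. The series calls the 2 libraries of a group biological replicates. The p-values measure the spread between libraries of a group, pooled over the 6 groups. Whether a group was a clone or a pool is not stated, so how far they cover spread between separately made cells is not known. Named genes were the globin genes, EP300, CREBBP, the 15 largest changes each way (at least 2-fold, mean log2 CPM of at least 1, groups apart), up to 8 genes read on 1 side only and up to 5 members of smallest p in each of 30 lists; the granulocyte and HOX genes, MAGEA10 and the CArG box were chosen after values were seen. Members and lists were chosen with earlier results of these data known. The H3K27ac samples were not analysed here. The alternatives tried were RLE factors, upper-quartile factors, DESeq2 1.42.0, no filter, a stricter filter (1 CPM in 2 libraries), the 2 groups alone, a replicate block and each library left out. Values of 2 list members are not reported here. Figures were drawn with matplotlib 3.10.9.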

Additional observations from a re-analysis of the deposited data

How the results depend on the processing

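The main count of 5076 changed genes ranged from 3193 to 3746 when 1 of the 4 libraries was left out, and was 5078 with RLE factors, 5048 with upper-quartile factors, 4623 without the filter, 5095 with the stricter filter, 5634 with the 2 groups alone and 3834 with DESeq2. With a replicate block it was 4837 (2447 higher, 2390 lower) and HBB was at log2 1.244. Deviations of same-numbered libraries correlated at -0.0752, which cannot show whether these libraries shared a culture, sort or preparation. Leaving out 1 library, genes higher under 1 CPM in WT numbered 253 to 331 and genes lower at 100 CPM or more 462 to 606. Values with no call changed sign. Leaving out 1 library, HBA1 ranged from log2 -0.6259 to 0.9644 and HOXB13 from -0.1488 to 0.04958, and the cause was not tested. HBA2 ranged from -2.059 to 3.14 and HBG2 from -5.26 to 1.327. The values 3.14 and -5.26 have no size, since those fits left a group without a read of the gene. HBA2 was at 0 CPM in D1399Y replicate 1 and HBG2 at 0 CPM in p300 replicate 2. Of 204 named genes, 20 lost their call with DESeq2, 4 with the replicate block and 17 to 30 with 1 library left out. Depth limits calls in genes under 1 CPM, where the median SE was 0.685.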

Other observations

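The HOX genes, which set position along the body axis and are widely expressed in HEK293 cells, were taken by symbol after their values had been seen. Of 35 tested, 30 were lower with active p300 than with D1399Y and none was higher, beside 15% and 15.4% of all genes; the median log2 fold change was -0.839. All 4 clusters took part, with 9 of 11 lower in HOXA, 8 of 9 in HOXB, 8 of 8 in HOXC and 5 of 7 in HOXD. HOXA5 was at 34.9 and 32.9 CPM with p300 and at 56.9 and 52.6 CPM with D1399Y (log2 -0.69, SE 0.0918, adjusted p = 4.65e-07). HOXC11 was at 13.3 and 13.6 CPM against 26.9 and 29 CPM (log2 -1.05, SE 0.119, adjusted p = 2.51e-08). HOXB8 was at 14.871 and 14.898 CPM against 33.9 and 31.5 CPM (log2 -1.14, SE 0.121, adjusted p = 6.27e-09). Both p300 libraries were below both D1399Y libraries in these 3 genes. HOXB13, at the end of its cluster, was at 32 and 27.9 CPM against 31.3 and 30.4 CPM (adjusted p = 0.782). HOXD1 had 18 counts with p300 and 7 with D1399Y and no call (adjusted p = 0.194). Against VPR, HOXC11 and HOXB8 were lower with VPRP and the non-targeting guide (log2 -0.95 and -1.02), and HOXA5 was as well (-1.29). Counting without strand, reads of HOX antisense transcripts such as HOXC-AS2 would not be separated from their neighbours.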
